A study of Mus musculus with 12 samples.

Results

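The genes described here are 7 long noncoding RNAs, Malat1, Neat1, Kcnq1ot1, Tug1, Airn, Meg3 and Snhg11, in the liver of germ-free and conventionalized mice. Each is a row of the gene table whose symbol equals that name, and together they are 7 of 41128 genes. They were chosen by their measured values in these same libraries, with earlier results known, so their difference between the conditions is given as a description and was not tested.

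RNA sequencing libraries were made from 12 livers of C57BL/6 mice aged 6 weeks, 1 library per mouse. Germ-free (GF) mice stayed in sterile isolators. Conventionalized (CV) littermates left the isolators at weaning on day 21 and lived for 3 weeks in cages with used bedding, which carries microbes. By label, 3 mice of each condition were male and 3 female, no mouse carried a transgene or deletion that the labels name, and the libraries came from poly(A)-selected RNA. Values are normalised read counts, that is, the gene's reads divided by 1 size factor per library.

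Recovered reads ranged from 5993619 to 15290835 per library. The library labelled CV male 3 held 0 reads of 4 Y-linked genes, against 796 to 1314 in the other libraries labelled male, and an Xist value of 2382, against 4.68 to 21.3 in those libraries. It therefore goes against its label. The condition differences of the members, their sex differences in CV and their interactions are also given without it below. Other counts, correlations and fits keep it as labelled unless stated. Mitochondrial ribosomal RNA (mt-Rnr1 and mt-Rnr2) took 9.36% to 16.4% of the reads in GF libraries. In CV it took 5.89% in CV male 2 and 6.32% in CV male 3, and 1.39% to 1.81% in the other 4 libraries. Hepatocyte markers had summed values of 126930 to 601746 in GF and 500733 to 705024 in CV, and 4 of 8 were called higher in CV. Lymphocyte markers were called lower in CV for 5 of 6 tested and erythroid markers for 4 of 5, Kupffer cell markers higher for 4 of 8, and sinusoidal endothelial markers lower for 2 of 8. Stellate cell markers were called higher for 2 of 8 and lower for 2 of 8, cholangiocyte markers for 0 of 6, and no marker of any list was at 0 in all libraries. Over all genes tested, 32.3% were called higher and 28.7% lower. Scaled to all reads, where 50.3% of genes were higher and 13.7% lower, the markers called higher were 6 of 8 for hepatocytes, 7 of 8 for Kupffer cells, 6 of 8 for stellate cells and 2 of 6 for cholangiocytes. No stellate cell marker was then lower. Without CV male 2 and CV male 3, 6 of 8 sinusoidal endothelial markers were called lower. In whole liver, fewer cells of a type and less RNA per cell cannot be told apart, and the part of these differences in the results below was not tested.

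Long noncoding RNAs of this kind are transcribed and processed like messenger RNAs but act as RNA, many of them in the nucleus. Malat1 gathers in nuclear speckles, bodies rich in splicing factors, and Neat1 is the scaffold of paraspeckles, bodies that form on its own transcript. Kcnq1ot1 and Airn are transcribed from the paternal chromosome at imprinted loci and silence neighbouring genes on it, and Meg3 is transcribed from the maternal chromosome. Tug1 is a widely expressed RNA found in the nucleus and the cytoplasm, and Snhg11 hosts small nucleolar RNAs. Gene counts do not show where in the cell an RNA lies, so the nuclear location is background and was not measured.

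In the GENCODE annotation of build GRCm38, Malat1, Neat1 and Meg3 are lincRNAs and Kcnq1ot1, Tug1 and Airn are antisense RNAs, while Snhg11 is annotated as protein-coding. Malat1 (ENSMUSG00000092341) lies on chr19:5795690-5802672, minus strand, and Neat1 (ENSMUSG00000092274) on chr19:5824708-5845478, minus strand. The longest transcript of Malat1 is 1 exon of 6983 bases and that of Neat1 1 exon of 20771 bases. Kcnq1ot1 (ENSMUSG00000101609) is 1 exon of 93092 bases on chr7:143203458-143296549, minus strand, within the body of Kcnq1 on the opposite strand. Tug1 (ENSMUSG00000056579) lies on chr11:3639785-3649673, minus strand, and overlaps Morc2a on the opposite strand. Airn (ENSMUSG00000078247) lies on chr17:12741311-12860136, plus strand, and overlaps Igf2r and Mas1 on the opposite strand. Meg3 (ENSMUSG00000021268) lies on chr12:109541001-109571726, plus strand, and Snhg11 (ENSMUSG00000044349) on chr2:158375638-158386145, plus strand. The kit marks strand, but the strand setting of the counting was not given in the sources used here, and Malat1 and Meg3 also have an overlapping gene on the opposite strand, so reads of all members but Neat1 and Snhg11 cannot be separated with certainty from opposite-strand partners.

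The 3′ end of Malat1 is shown because the libraries were selected by poly(A), and this RNA is known to end in a genome-encoded A-rich tract in place of an added tail, after cleavage beside a tRNA-like structure. The capitals mark the U-rich motifs, written with T, and then the A-rich tract. The stretch spans bases 6606 to 6691 of the 6983-base GENCODE transcript, at chr19:5795982-5796067 on the minus strand, all of it exonic.

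Malat1 3′ end: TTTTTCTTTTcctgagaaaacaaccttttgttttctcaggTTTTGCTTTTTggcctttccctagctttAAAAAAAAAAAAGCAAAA

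A run of at least 12 A was found 1 time in the longest transcript of Malat1, 8 times in Kcnq1ot1 and 3 times in Meg3, and 0 times in Neat1, Tug1, Airn and Snhg11. Such a run was found in 11.4% of the longest transcripts of the genes tested. The promoters of Malat1 and Kcnq1ot1, the pair with the highest r within groups, which rested mostly on the CV males (below), are shown for comparison. They are RefSeq windows on GRCm38.p6 from 250 bases before to 50 bases after the gene start, and the capitals mark matches to CCAAT on either strand.

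Malat1 promoter, chr19:5802623-5802922, minus strand: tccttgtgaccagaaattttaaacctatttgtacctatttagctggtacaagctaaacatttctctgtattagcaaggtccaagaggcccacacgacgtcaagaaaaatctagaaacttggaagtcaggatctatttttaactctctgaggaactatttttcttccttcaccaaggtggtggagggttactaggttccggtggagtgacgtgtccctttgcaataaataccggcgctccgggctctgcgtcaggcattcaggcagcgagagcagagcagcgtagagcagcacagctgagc
Kcnq1ot1 promoter, chr7:143296498-143296797, minus strand: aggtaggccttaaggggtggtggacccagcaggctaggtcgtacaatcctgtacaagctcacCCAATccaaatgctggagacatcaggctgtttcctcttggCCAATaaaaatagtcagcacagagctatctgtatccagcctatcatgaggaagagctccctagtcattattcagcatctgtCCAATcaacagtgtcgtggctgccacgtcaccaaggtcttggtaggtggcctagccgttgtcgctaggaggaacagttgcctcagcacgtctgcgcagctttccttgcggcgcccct

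The Kcnq1ot1 promoter held 3 matches to CCAAT. At least 3 were found in 3.37% of 32851 RefSeq promoters and at least 1 in 37.4%. The Malat1 promoter held 0 matches to CCAAT and 0 to TGACGTCA, TATAAA or GGGCGG on either strand. At least 1 match was found in 1.79% of the promoters for TGACGTCA, in 13.6% for TATAAA and in 35.7% for GGGCGG. The RefSeq table matched 6 of the 7 genes, and Neat1 had no entry.

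**Figure D1:**
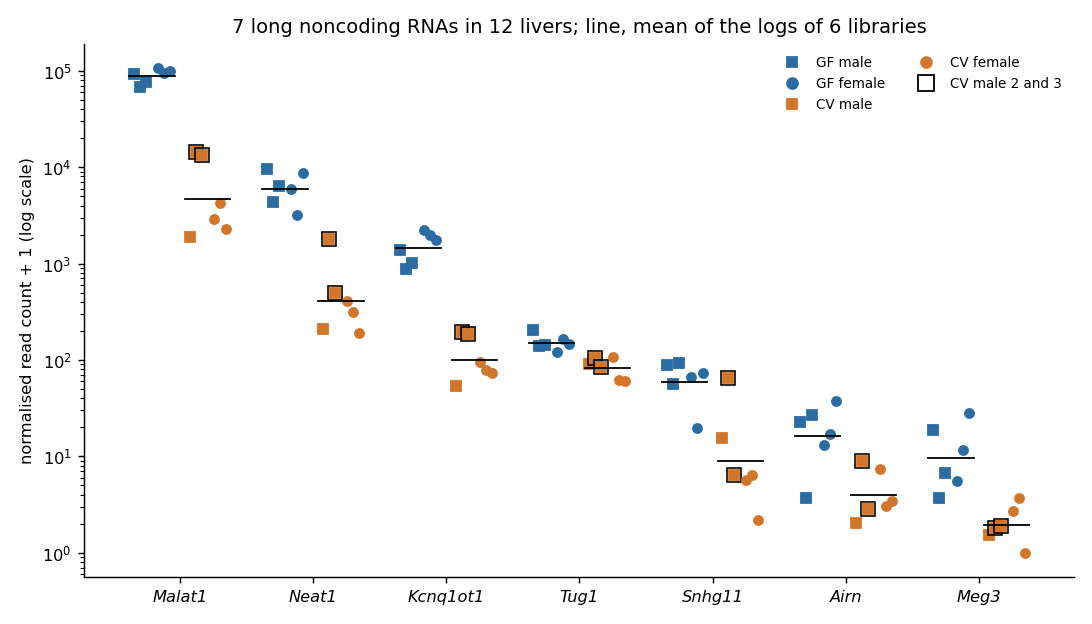
Normalised read count + 1 on a log scale (vertical axis) of the 7 long noncoding RNAs (horizontal axis) in 12 livers, 1 point per library, with squares for males, circles for females, blue for GF and orange for CV. The line is the mean of the logs of 6 libraries, and black frames mark CV male 2 and CV male 3, which lie nearest to the GF libraries for Malat1 and Kcnq1ot1.

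Malat1, the speckle RNA, was the most abundant of the 7 in both conditions. Its normalised read counts in GF were 92281, 67082 and 76924 in males 1, 2 and 3, and 106330, 94894 and 100505 in females 1, 2 and 3. In CV they were 1889, 14370 and 13411 in males and 2919, 4217 and 2260 in females. Each CV library lay below each GF library, and within CV the libraries CV male 2 and CV male 3 lay above the other 4. The largest share of reads on Malat1 was 1.09% in GF female 1 (95% Wilson interval 1.08% to 1.10%), and the smallest was 0.0243% in CV male 1 (0.0235% to 0.0251%). The libraries carry no molecular identifiers that would mark copies of a molecule, so these intervals and the limits below hold the counting error and nothing more. On the log2(value + 1) scale CV minus GF was -4.25 ± 0.42 (SE, n = 12 libraries), 19-fold lower in CV. It was -3.45 ± 0.59 in males, or -3.91 without CV male 3, and -5.05 ± 0.59 in females.

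Neat1, the paraspeckle scaffold, has a short and a long isoform, which 1 gene row cannot separate. It had 9544, 4340 and 6373 in GF males and 5967, 3203 and 8628 in GF females. CV males had 209, 1802 and 492, and CV females 405, 312 and 190. The conditions did not overlap, but CV male 2 lay closer to GF female 2 than to any other CV library on the log scale. CV minus GF was -3.87 ± 0.41 on the log2 scale, 14.6-fold lower.

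Kcnq1ot1, the imprinted antisense RNA of the Kcnq1 locus, had 1384, 869 and 1016 in GF males and 2224, 1995 and 1771 in GF females. In CV it had 53.1, 192 and 186 in males and 93.4, 77.3 and 71.6 in females. Each GF female lay above each GF male, and each CV library lay below each GF library. CV minus GF was -3.86 ± 0.27 on the log2 scale, 14.5-fold lower.

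Airn, the imprinted antisense RNA of the Igf2r locus, was near the detection limit. It had 21.5, 2.66 and 25.5 in GF males and 12.1, 16.0 and 36.4 in GF females, from 2 to 24 reads. In CV it had 1.04, 7.95 and 1.82 in males and 6.31, 2.02 and 2.41 in females, from 2 to 15 reads. The conditions overlapped, since GF male 2 lay below 2 CV libraries. CV minus GF was -2.03 ± 0.57 on the log2 scale.

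Meg3, the maternally expressed RNA, had a mean value of 6.24 and did not pass the filter of a mean of at least 10, so it entered no fit. It had 17.9, 2.66 and 5.67 in GF males and 4.53, 10.6 and 26.8 in GF females, from 2 to 20 reads. In CV it had 0.520, 0.795 and 0.909 in males and 1.68, 2.69 and 0 in females, from 0 to 4 reads. The conditions overlapped, since GF male 2, at 2.66, lay just below CV female 2, at 2.69. The 0 in CV female 3 allows up to 2.53e-05% of its reads. Without the filter CV minus GF was -2.33 on the log2(value + 1) scale, which understates a change of so low a gene.

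Snhg11, the host of small nucleolar RNAs, had 87.8, 55.9 and 92.1 in GF males and 64.9, 18.6 and 72.8 in GF females. In CV it had 14.6, 64.4 and 5.45 in males and 4.63, 5.37 and 1.2 in females. These came from 28, 81 and 6 reads in the males and 11, 8 and 2 in the females. GF female 2 had 7 reads. CV male 2 lay within the GF range and the other 5 CV libraries below it. CV minus GF was -2.73 ± 0.49 on the log2 scale, 6.65-fold lower.

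Tug1 had the smallest difference. Its values were 205, 137 and 140 in GF males and 119, 165 and 144 in GF females. In CV they were 89.5, 104 and 82.7 in males and 106, 61.1 and 59.6 in females. The conditions did not overlap, yet only the step from 106 to 119 separated them. CV minus GF was -0.86 ± 0.19 on the log2 scale, 1.82-fold lower.

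By the rule used for all genes, 6 of the 6 members that passed the filter were called lower in CV, where 28.7% of the 11782 genes tested were called lower and 32.3% higher. In 4 of the 7, Malat1, Neat1, Kcnq1ot1 and Tug1, all 6 CV libraries lay below all 6 GF libraries, as they did for 15.7% of the genes tested. In males, CV male 3 included, the CV libraries lay below the GF libraries for 5 of 7 members, against 21.1% of genes. In females they did so for 7 of 7, against 31% of genes. Because the rule used this contrast, nothing is read from these counts. Scaled to all reads in place of the size factors, which moved the median difference of all genes from 0.07 to 0.62 on the log2 scale, CV minus GF was -3.69 for Malat1, -3.31 for Neat1, -3.30 for Kcnq1ot1, -2.23 for Snhg11, -1.57 for Airn and -0.31 for Tug1. On that scale all CV libraries lay below all GF libraries for 2 of 7, Malat1 and Kcnq1ot1, against 3.86% of genes. Without CV male 3, CV minus GF was -4.48 for Malat1, -3.81 for Neat1, -4.00 for Kcnq1ot1, -2.35 for Snhg11, -1.93 for Airn and -0.83 for Tug1.

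Levels of different genes can be set side by side only per length, here as normalised read count per kilobase of the longest transcript. That transcript has 6719 bases in Tug1, 1375 in Airn and 5864 in Snhg11, while all annotated exons together span 9734, 3597 and 8521. Per kilobase of all exons these genes lie lower, so the order among Tug1, Kcnq1ot1, Airn and Snhg11 depends on the length used. In GF the order was Malat1 at 12841 ± 2126 (SD, n = 6), Neat1 at 305 ± 117, Tug1 at 22.6 ± 4.5, Kcnq1ot1 at 16.6 ± 5.8, Airn at 13.8 ± 8.5, Snhg11 at 11.1 ± 4.5 and Meg3 at 0.782 ± 0.643. Neighbours in this order from Tug1 to Snhg11 had overlapping ranges, while Malat1, Neat1 and Meg3 each lay apart from their neighbours. In CV the order was Malat1 at 932 ± 828, Neat1 at 27.4 ± 29.6, Tug1 at 12.5 ± 3.0, Snhg11 at 2.72 ± 4.12, Airn at 2.61 ± 2.06, Kcnq1ot1 at 1.21 ± 0.65 and Meg3 at 0.0755 ± 0.0655. There the ranges of neighbours from Neat1 to Kcnq1ot1 overlapped. The place of Snhg11 rested on CV male 2, at 11.0, since its median was 0.923, below that of Airn at 1.61, and the median of Neat1 was 17.2. Together the 7 genes took 0.629% to 1.18% of the reads in GF and 0.0290% to 0.228% in CV.

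Among the 377 tested genes annotated as long noncoding or among the 7, ordered from the most negative CV minus GF, Malat1 was at rank 3, Neat1 at 9, Kcnq1ot1 at 10, Snhg11 at 57, Airn at 112 and Tug1 at 219. The other 371 had a median of -1.16, with 217 called lower and 29 higher, against a median of 0.12 in 11207 protein-coding genes. The difference also ran with transcript length. Its median was 0.70 in the shortest of 5 length classes and -0.67 in the longest, to which Malat1, Neat1, Kcnq1ot1, Tug1 and Snhg11 belong, whereas Airn, with a longest spliced transcript of 1375 bases, belongs to the shortest. With a trend on length and GC content removed from each library, CV minus GF was -3.58 for Malat1, -2.35 for Neat1, -1.51 for Kcnq1ot1, -2.29 for Snhg11, -2.48 for Airn and -0.16 for Tug1. The removal moved Neat1, Kcnq1ot1 and Tug1 toward 0 by more than 1.5 times, and Airn away from 0.

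**Figure D2:**
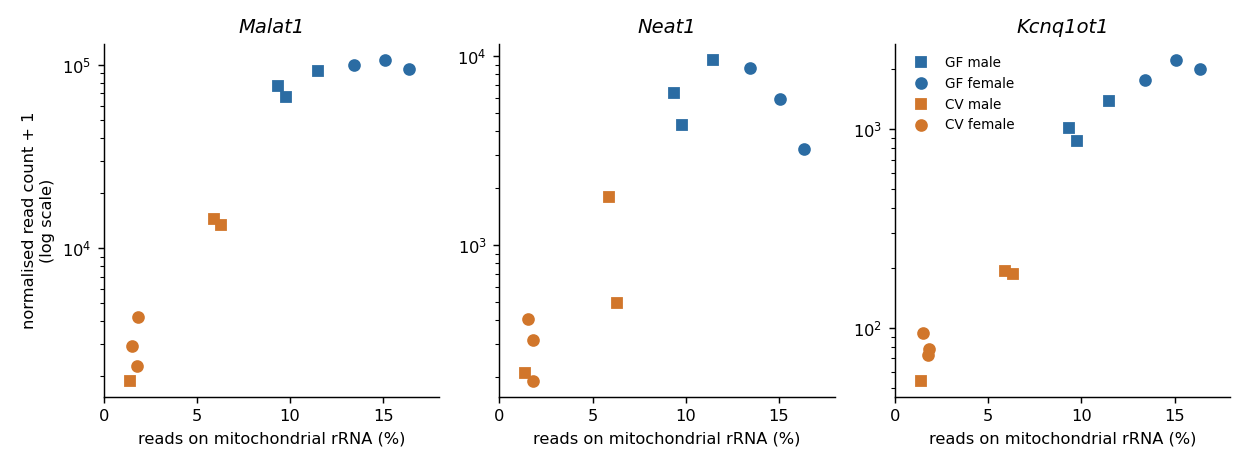
Normalised read count + 1 (vertical axis, log scale) of Malat1, Neat1 and Kcnq1ot1 against the percent of a library's reads on mitochondrial ribosomal RNA (horizontal axis), 1 point per library. CV male 2 and CV male 3, at 5.89% and 6.32%, lie between the other CV libraries and the GF libraries.

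The ribosomal share of the library was set beside the members, since it differed between the conditions. Shares in GF were 11.5%, 9.79% and 9.36% in males and 15.1%, 16.4% and 13.4% in females, so that in GF the share and the sex ran together. Over the 6 GF libraries, 7 relations with log2(value + 1) were computed, with 14 p-values adjusted together. The members were chosen by their values in these libraries, read beside this share. The p-values are therefore given as a description, and nothing is concluded from them. Kcnq1ot1 had Pearson r = 0.94 (exact two-sided permutation p = 0.0139, adjusted p = 0.194) and Spearman rho = 0.89 (exact p = 0.0333, adjusted p = 0.233). Without GF male 3 and GF female 2, the libraries farthest from the median share, r was 0.98. Malat1 had r = 0.81 (exact permutation p = 0.0556, adjusted p = 0.259) and rho = 0.77 (exact p = 0.103, adjusted p = 0.288), and r = 0.92 without those libraries. When values were scaled to all reads, r was 0.60 for Kcnq1ot1 and -0.07 for Malat1.

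For Snhg11, r was -0.67 (exact permutation p = 0.0958, adjusted p = 0.288) and rho -0.66 (exact p = 0.175, adjusted p = 0.408), and r was 0.17 without those libraries, so that relation rests on them. Neat1 had r = -0.32 (exact permutation p = 0.521, adjusted p = 0.838) and rho = -0.37 (exact p = 0.497, adjusted p = 0.838). Its r was 0.31 without those libraries. Tug1 had r = -0.05 and rho = 0.14, Airn 0.22 and -0.14, and Meg3 0.31 and 0.26, with exact permutation p of at least 0.539, adjusted p of at least 0.838, and r without those libraries of -0.44, 0.57 and 0.23. No relation passed the adjusted threshold, and each sex holds 3 GF libraries, too few to test within a sex. A relation over the 6 CV libraries had also been planned. The CV shares fell into separate clusters of 4 and 2 libraries, so it was left out once they were seen. Neither cluster holds the 6 libraries set as the least for a relation.

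With the share as a term in the fit, CV minus GF was -0.18 for Malat1 (95% interval -2.51 to 2.15), -1.61 for Neat1 (-4.68 to 1.45), -1.0 for Kcnq1ot1 (-2.33 to 0.33), -0.47 for Tug1 (-1.95 to 1.00), -0.89 for Airn (-5.44 to 3.66) and -3.62 for Snhg11 (-7.60 to 0.36). These intervals are wide because 93.5% of the variance of the share lay between the 4 groups, and that fit called 0 of all genes in either direction. With log2 of the share as the term, which was added after the data were seen, Malat1 was at -1.24 (-2.38 to -0.10), Kcnq1ot1 at -1.94 (-2.72 to -1.17) and Neat1 at -1.83 (-3.71 to 0.04). Tug1 was then at -0.83 (-1.82 to 0.16), Airn at -0.94 (-3.96 to 2.07) and Snhg11 at -2.67 (-5.41 to 0.07). The share and the condition can be told apart only through the spread within groups.

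**Figure D3:**
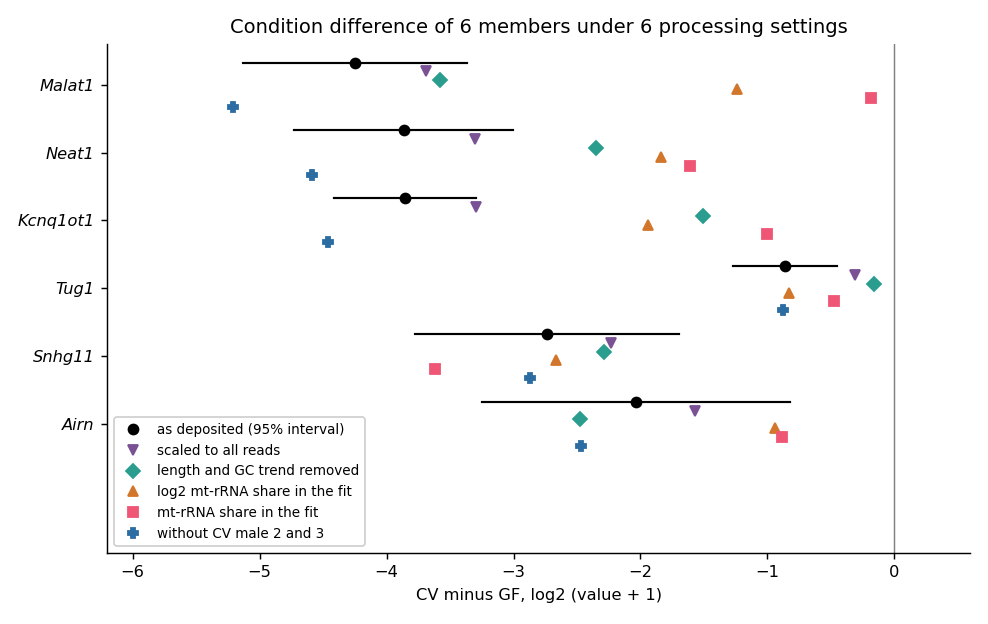
CV minus GF on the log2(value + 1) scale (horizontal axis) of the 6 members that passed the filter (vertical axis) under 6 settings, with the 95% interval of the values as deposited. Each point lies below 0, and Malat1 runs from -5.21 without CV male 2 and CV male 3 to -0.18 with the ribosomal share in the fit.

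Whether the 2 sexes differed is a question that the choice of the genes did not use. By limma with Benjamini-Hochberg adjustment over all genes, 0 of 6 members differed between males and females over both conditions, where 1.16% of genes did. In GF and in CV alone 0 of 6 differed, where 1.63% and 0.0594% of genes did. These counts keep CV male 3 as a male. Leaving it out gave 203 genes in place of 137 over both conditions, 270 in place of 192 in GF and 77 in place of 7 in CV. Of the members, Snhg11 then passed over both conditions (below). At an unadjusted p under 0.05 there was 1 member in each of these comparisons, beside 1296, 2078 and 601 of the 11782 genes tested. edgeR called 0 members in each, beside 145, 122 and 26 genes. DESeq2 called 1 member over both conditions, 0 in GF and 1 in CV, beside 261, 425 and 52 genes.

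Snhg11 was the member DESeq2 called. Its male minus female difference was 1.45 ± 0.49 (SE) over both conditions (limma adjusted p = 0.242, DESeq2 adjusted p = 0.0222) and 2.13 ± 0.70 in CV (limma adjusted p = 0.705, DESeq2 adjusted p = 0.0152). Each CV male lay above each CV female, as in either direction 10.9% of genes did, although CV male 3, at 5.45, exceeded CV female 2, at 5.37, by less than the value of 1 read. Without CV male 3 the difference was 1.83 over both conditions (limma adjusted p = 0.0397) and 2.89 in CV (adjusted p = 0.0538). Without CV male 2, the library with 64.4, it was 1.00 (adjusted p = 0.475) and 1.22 (adjusted p = 1.00). With the replicate number as a block within the CV livers, the value in CV was 2.13 (limma adjusted p = 0.246), and 25 genes were called there in place of 7. Same-numbered CV livers had correlations of 0.118 to 0.193, and no label pairs them.

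Kcnq1ot1 was lower in each GF male than in each GF female, with a male minus female difference of -0.89 ± 0.37 (limma adjusted p = 0.224), and 18.7% of genes had no overlap of the sexes in GF. As a share of all reads the sexes overlapped, at 0.0141% in GF male 1 and 0.0125% in GF female 2, and with values scaled to all reads the difference was -0.55 (adjusted p = 0.415). Malat1 likewise did not overlap in GF by the deposited values, at -0.36 ± 0.59 (adjusted p = 0.782). Its shares of all reads overlapped, at 0.643% to 0.939% in males and 0.595% to 1.09% in females, with a difference of -0.019 on that scale (adjusted p = 0.989). The GF males also had the lower ribosomal share, and its part in these differences was not tested. In CV the estimates were positive for both, 0.62 ± 0.37 for Kcnq1ot1 (adjusted p = 0.951) and 1.24 ± 0.59 for Malat1 (adjusted p = 0.928). Without CV male 3 they were 0.33 and 0.78 (adjusted p = 1.00 for each). Neat1 was at 0.98 ± 0.58 in CV (adjusted p = 0.944), Tug1 at 0.33 ± 0.27 (adjusted p = 0.952) and Airn at -0.18 ± 0.81 (adjusted p = 0.994). Without CV male 3 these were 1.09, 0.40 and 0.02.

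The condition difference of males minus that of females, the interaction, was 1.51 ± 0.53 for Kcnq1ot1 (limma adjusted p = 0.417) and 1.60 ± 0.84 for Malat1 (adjusted p = 0.442). It was 1.36 ± 0.98 for Snhg11, 0.76 ± 0.82 for Neat1, 0.46 ± 1.15 for Airn and 0.17 ± 0.39 for Tug1, with adjusted p of at least 0.550. Without CV male 3 it was 1.22 for Kcnq1ot1, 1.15 for Malat1, 2.13 for Snhg11, 0.86 for Neat1, 0.66 for Airn and 0.24 for Tug1, with adjusted p of at least 0.620. No member passed, with 1 at an unadjusted p under 0.05, and 0% of genes passed, with 1382 at an unadjusted p under 0.05. edgeR called 0 genes and DESeq2 19, none of them a member.

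The calls for Malat1 and Kcnq1ot1 depended on which CV males were in the fit. Without CV male 1, limma called Malat1 in CV (male minus female 2.20, adjusted p = 0.0175) and in the interaction (2.56, adjusted p = 0.0321). It then also called Kcnq1ot1 in GF (-0.89, adjusted p = 0.0385), in CV (1.22, adjusted p = 0.0444) and in the interaction (2.12, adjusted p = 0.0272). In that fit 304 genes were called between the sexes in GF, 48 in CV and 291 in the interaction, against 192, 7 and 0 with all libraries. The CV males left are the 2 libraries with a ribosomal share near 6%. CV male 3 is among them and goes against its label, so these calls are not read as a difference between the sexes. Without CV male 2 and CV male 3, in place of CV male 1, the difference in CV was -0.68 for Malat1 and -0.59 for Kcnq1ot1. CV males are then 1 library assumed to vary like the other groups.

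**Figure D4:**
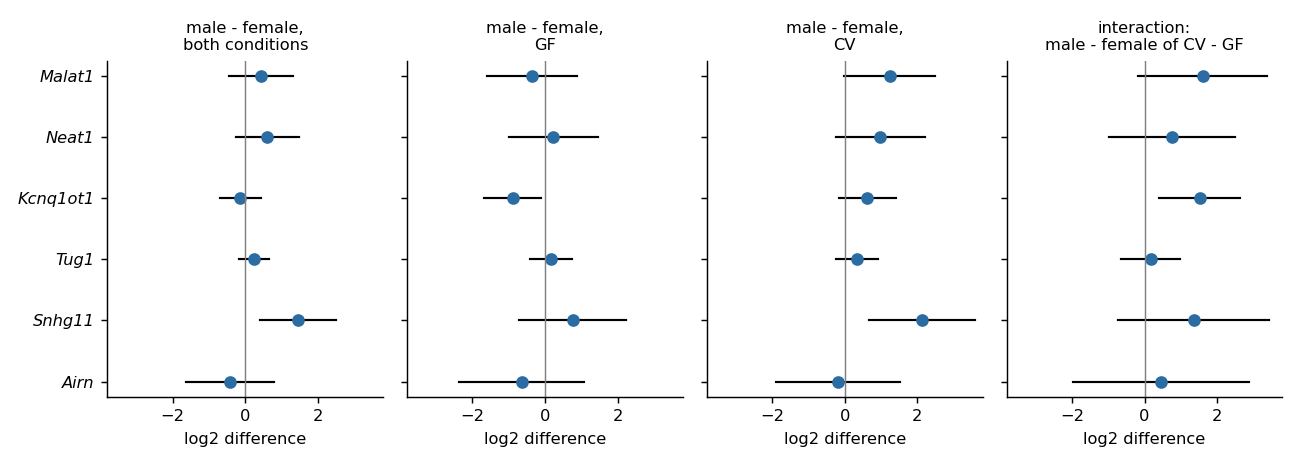
Male minus female on the log2(value + 1) scale (horizontal axes) of the 6 members that passed the filter, over both conditions, in GF and in CV, and the interaction, with points for the limma estimate and lines for its unadjusted 95% interval. The intervals of Snhg11 lie above 0 over both conditions and in CV, that of Kcnq1ot1 below 0 in GF and above 0 in the interaction, and none of these passed the adjusted threshold.

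Genes of proteins that build the bodies these RNAs occupy were read for the same condition contrast. Their values are RNA read counts, and no protein was measured, so below each protein name stands for the RNA of its gene. The lists were written with earlier results of these data known and are a description beside the share of all genes, 28.7% lower and 32.3% higher, or 13.7% and 50.3% when scaled to all reads. Of 20 genes of nuclear speckle and splicing proteins, 17 were lower in CV and 0 higher. Their median CV minus GF was -1.07 against 0.07 over all genes tested. Scaled to all reads, 10 were lower and 0 higher, with a median of -0.52 against 0.62. The RNA of Pnn, a protein of the speckle and the exon junction, fell from 1150 ± 386 (SD, n = 6) to 133 ± 52. Its log2 difference was -3.12 ± 0.27 (limma adjusted p = 5.7e-07). The speckle core proteins Srrm2 and Son also fell, with log2 differences of -2.23 ± 0.26 (adjusted p = 4.6e-06) and -2.18 ± 0.23 (adjusted p = 2.3e-06), as did the kinase Clk1, which phosphorylates splicing factors (-2.43 ± 0.21, adjusted p = 5.9e-07). Srsf3 and U2af2, at -0.14 and -0.38, were among the members that did not pass.

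Of 16 genes of paraspeckle proteins, 11 were lower in CV and 2 higher, with a median of -0.57. On the scale of all reads 1 was lower and 2 higher, with a median of -0.01. The RNAs of partners that bind Neat1 did not move one way. Sfpq fell (log2 difference -1.67 ± 0.19, limma adjusted p = 3.3e-06) and so did Pspc1 (-0.99 ± 0.29, adjusted p = 0.0080), whereas Nono rose by 0.60 ± 0.17 (adjusted p = 0.0053). These differences were -1.11, -0.44 and 1.16 when scaled to all reads. Hnrnpk, an RNA-binding protein, rose from 643 ± 106 to 1347 ± 421 (log2 difference 1.02 ± 0.21, adjusted p = 6.5e-04). Rbm14, at -0.08 ± 0.21, did not pass.

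Of 18 genes of Polycomb and silencing proteins, which several imprinted RNAs are known to recruit, 7 were lower and 2 higher. Their median was -0.31. Scaled to all reads, 2 were lower and 7 higher, with a median of 0.24. The histone H3 methyltransferases Ezh2 and Ehmt1 fell, with log2 differences of -1.35 ± 0.25 (adjusted p = 2.3e-04) and -1.61 ± 0.19 (adjusted p = 5.5e-06). The histone-binding subunits Rbbp4 and Rbbp7 rose by 1.01 ± 0.25 (adjusted p = 0.0022) and 0.87 ± 0.21 (adjusted p = 0.0020). The core subunits Eed, at 0.06, and Suz12, at -0.39, did not pass.

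Of 19 genes of factors of nuclear RNA decay and export, 9 were lower and 3 higher, with a median of -0.66. The counts were 5 and 4 when scaled to all reads, with a median of -0.10. Zfc3h1, which holds polyadenylated RNA in the nucleus for decay, fell from 617 ± 243 to 90.9 ± 38.7 (log2 difference -2.74 ± 0.27, adjusted p = 1.3e-06). The nuclear m6A reader Ythdc1 and the export factor Thoc2 fell, with log2 differences of -2.0 ± 0.21 (adjusted p = 1.8e-06) and -1.95 ± 0.19 (adjusted p = 1.2e-06). The export adaptors Alyref and Nxt1 rose by 1.11 ± 0.20 (adjusted p = 1.7e-04) and 1.26 ± 0.27 (adjusted p = 6.7e-04).

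Among other noncoding RNAs, 5 of 9 tested hosts of small nucleolar RNAs were lower in CV and 0 higher. Snhg20 fell by 2.16 ± 0.31 (adjusted p = 2.1e-05), while Gas5, at -0.40 ± 0.24, and Zfas1, at -0.31 ± 0.25, did not pass. Of 5 further tested RNAs, 4 were lower and 0 higher. The lower ones were Lncpint, Mir17hg, Mir22hg and Rpph1, the RNA of RNase P, with log2 differences of -3.06, -2.97, -0.66 and -3.18. Scaled to all reads, 3 of the 5 were lower and 0 higher. Rian and Mirg, which share the Meg3 locus, did not pass the filter, with means of 1.43 and 0.222 in GF and 0.377 and 0.0701 in CV.

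The neighbours were protein-coding genes with a body within 250 kb of a member. Of 18 tested around Malat1, 4 were called higher and 4 lower, and of 23 around Neat1, many of them the same genes, 8 and 4, beside 32.3% of all genes higher and 28.7% lower. These are 22.2% and 22.2% of the neighbours of Malat1 and 34.8% and 17.4% of those of Neat1. On the scale of all reads the counts were 8 higher and 1 lower around Malat1 and 14 and 1 around Neat1. Syvn1, an ubiquitin ligase of the endoplasmic reticulum, fell from 2907 ± 1018 to 467 ± 124 (log2 difference -2.61 ± 0.24, limma adjusted p = 7.6e-07), while Frmd8 rose by 0.80 ± 0.21 (adjusted p = 0.0037).

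Around Kcnq1ot1, 2 of 5 were called higher and 0 lower. Cdkn1c, a cell cycle inhibitor and imprinted target of Kcnq1ot1, had 33.5 ± 19.5 in GF and 30.8 ± 12.8 in CV, with a log2 difference of 0.00 ± 0.33 (adjusted p = 0.993). Slc22a18, another imprinted gene of the domain, rose by 0.72 ± 0.22 (adjusted p = 0.0083), and Cd81, a tetraspanin, by 2.16 ± 0.24 (adjusted p = 2.4e-06). Kcnq1 itself, with means of 10.1 in GF and 7.88 in CV, did not pass the filter.

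Around Airn, 4 of 10 were called higher and 2 lower. Igf2r, the receptor gene that Airn is known to silence, had 175 ± 17 in GF and 153 ± 27 in CV, with a log2 difference of -0.21 ± 0.15 (adjusted p = 0.238). Slc22a3, imprinted in the placenta, fell by 0.91 ± 0.27 (adjusted p = 0.0082). Around Tug1, 1 of 5 was higher and 3 lower, among them Morc2a, which overlaps Tug1 on the opposite strand and fell by 1.53 ± 0.21 (adjusted p = 1.7e-05). Around Snhg11, 2 of 5 were higher and 2 lower, and around Meg3 neither Dlk1 nor Rtl1 had a read.

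Over all lists and neighbours, 64 of 136 genes were called lower and 24 higher. Scaled to all reads these counts were 26 and 41, beside 13.7% lower and 50.3% higher over all genes, against 28.7% and 32.3% as deposited. Under that scaling 2 of 9 hosts of small nucleolar RNAs were lower and 1 higher. Of the neighbours, 4 of 5 around Kcnq1ot1 were higher and 0 lower, 5 and 0 of 10 around Airn, 1 and 2 of 5 around Tug1, and 3 and 0 of 5 around Snhg11. With the ribosomal share in the fit 0 of 136 were called. With its log2 there was 1, a gene called lower.

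**Figure D5:**
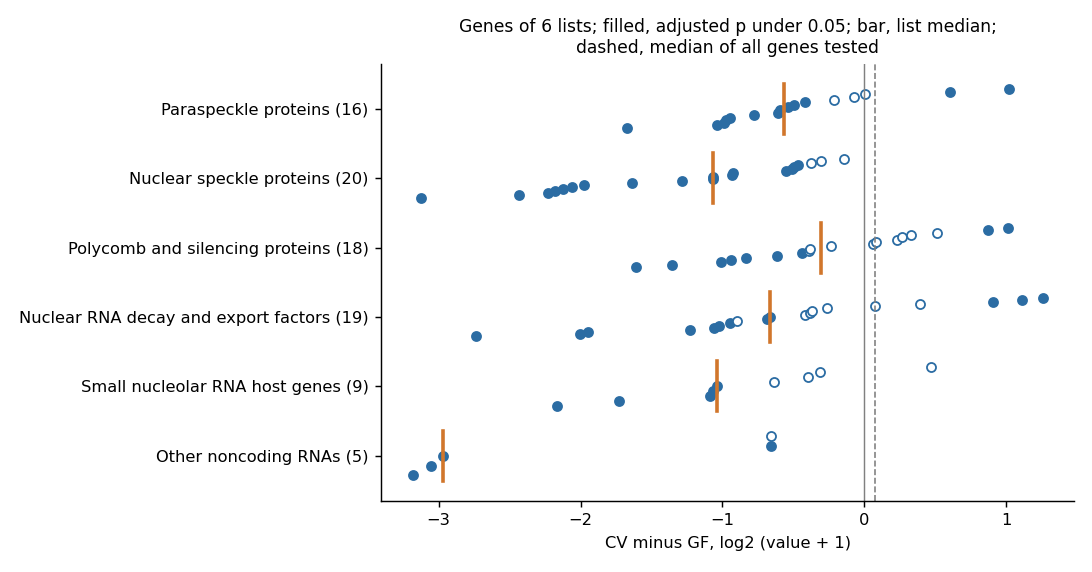
CV minus GF on the log2(value + 1) scale (horizontal axis) of the tested genes of 6 lists (vertical axis, number tested in brackets), filled where the limma adjusted p was under 0.05. The orange bar is the list median, which runs from -0.31 for Polycomb and silencing proteins to -2.97 for the other noncoding RNAs, against 0.07 over all genes (dashed).

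The 3 genes whose log2 values ran most like each member over the 12 libraries are given as a description, since all points share the condition, the library and its depth. For Malat1 they were Dusp11, Rbm39 and Tcf4, a nuclear phosphatase, a splicing factor and a transcription factor, each with Pearson r = 0.99. Neat1 was most like Luc7l, a splicing factor (r = 0.99), the noncoding RNA Lncpint (0.99) and Rsrp1 (0.99). Kcnq1ot1 was most like Trip11 (1.00), Cnot4 (0.99) and Ankrd10 (0.99). The values were lower for Tug1, with Sos2, Itgb2l and Phka1 at 0.94, 0.94 and 0.94, for Airn, with Pank4, F8 and Dync1li2 at 0.95, 0.95 and 0.95, and for Snhg11, with Atl1, Mx1 and Pard3b at 0.96, 0.95 and 0.95.

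Within the 4 groups, after the group means were taken off, the 12 values of Malat1 and Kcnq1ot1 had r = 0.94, the highest of the 15 pairs among the 6 members tested. Snhg11 and Neat1 had 0.76, Malat1 and Neat1 0.74, Neat1 and Kcnq1ot1 0.73 and Neat1 and Airn 0.73. Malat1 and Tug1, at 0.09, were the least alike. These values share depth and ribosomal share, and within groups CV male 2 and CV male 3 lay on the same side of CV male 1 for Malat1, Neat1 and Kcnq1ot1. Most of the spread of Malat1 and Kcnq1ot1 within groups lay among the CV males, which include CV male 3, the library that goes against its label. No r without the CV males was computed, so the r of this pair is not read as a relation within each group.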

How the data were processed

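RNA from 12 mouse livers was sequenced. The deposited values are a normalized signal, which the authors made from read counts with 1 size factor for all genes of a library. Per the labels, the submitters' processing notes name HTSeq 0.6.1p1, DESeq2 and build GRCm38, and libraries came from a stranded mRNA kit. The aligner, annotation and strand setting are not given in the sources used here. Divided by the smallest step of its library, 100% of values came out whole to within 0.01, which gave back the reads.

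Groups came from the sample titles. The members, the lists and the neighbour window were chosen with earlier results of these data known. limma 3.58.1 in R 4.3.3 was fitted on log2(value + 1) for genes with a mean value of at least 10 (11782 genes), with 1 mean per group of condition and labelled sex, a variance trend, Benjamini-Hochberg adjustment and a threshold of 0.05. All 12 libraries entered 1 fit. Scripts were tested on simulated data. Fold changes on this scale understate the change of low genes. Nothing says how the mice were housed within a condition, so p-values measure only the spread between these samples. Relations within GF were tested by exact permutation over 720 pairings, computed with numpy 2.4.6, and SciPy 1.17.1 gave the ranks and the Wilson intervals. The genes named are the members, the genes of the lists and neighbours, and the 3 genes most alike to each member by Pearson r. Names, coordinates and transcript lengths came from GENCODE mouse release 21 (97.9% of identifiers matched). Alternatives were edgeR 4.0.16 and DESeq2 1.42.0 on the recovered reads, other pseudocounts, filters and scalings, removal of a loess trend on length and GC content, the ribosomal share or its log2 as a covariate, each library left out, and the replicate number as a block. The log2 covariate, the block within CV and leaving out CV male 2 and CV male 3 together were chosen after seeing the data. Each of the same-numbered correlations was over 0.1 in 1 of 6 pairs of groups, CV males and CV females, at 0.118 to 0.193. The labels do not say that mice of the same number belong together, so the block within CV is an alternative fit and not a known pairing.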

Additional observations from a re-analysis of the deposited data

Results flagged for a closer look

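Of 16 groups of 6 values screened (the 7 members and the mitochondrial ribosomal share in GF and in CV), 1 held a library far from the others. Snhg11 in GF female 2 had a log2(value + 1) of 4.29, against 5.83 in the nearest GF library, a gap of 0.684 of the range, where 0.625 is the critical value for 6 libraries. About 1 in 20 such groups passes by chance. That library had 5993619 reads, the fewest of the 12, and the largest share of reads on 4 ribosomal loci, 44.6%. What part these had in the Snhg11 value was not tested.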

How the results depend on the processing

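Of 1155 recomputed values of named genes under 28 alternatives, 1058 kept their direction and side of the threshold, 8 passed it newly, 46 moved and 43 changed sign. The cause of these changes was not tested. Depth limits Airn (2 to 24 reads) and Meg3 (0 to 20 reads). It also limits Snhg11 in CV (2 to 81 reads) and in GF female 2 (7 reads).

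Scaling to all reads gave 1393 genes called between the sexes in GF in place of 192, 17 in CV in place of 7 and 11 in the interaction in place of 0, interactions of -0.32 for Tug1 and -0.011 for Airn, and r = -0.069 for Malat1 with the ribosomal share in GF. Scaling without 4 loci gave 471 genes in GF, and the share from those loci r = 0.087 for Tug1. A pseudocount of 0.5 gave 4 genes in CV, and no filter 3. edgeR gave 122 in GF and 26 in CV with TMM factors, and 102 and 26 with upper quartile factors. DESeq2 gave 261 genes over both conditions in place of 137, 425 in GF, 52 in CV and 19 in the interaction, and 1 member over both conditions and 1 in CV. Removing the length and GC trend gave interactions of -0.033 for Neat1 and -0.29 for Tug1.

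The ribosomal share as a covariate gave 0 genes called between the conditions in place of 7194, 0 partner and neighbour genes in place of 88, 4 genes between the sexes in GF, 15 in CV and 1 in the interaction. Malat1 then had CV minus GF of 0.65 in females, male minus female of 1.68 in GF and an interaction of -1.66. Kcnq1ot1 had male minus female of 0.15 over both conditions, 0.54 in GF and -0.23 in CV and an interaction of -0.77, and interactions were -1.05 for Neat1, -0.14 for Tug1 and -0.46 for Airn. Its log2 gave 139 genes between the conditions, 1 partner or neighbour gene, and 216, 105 and 13 genes between the sexes over both conditions, in GF and in CV. Malat1 then had male minus female of 0.36 in GF and -0.26 in CV and an interaction of -0.62, Neat1 -0.024 in CV and -0.74 in the interaction, Kcnq1ot1 -0.33 in CV and Airn an interaction of -0.34.

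Without CV male 2 and CV male 3 together, 245 genes were called between the sexes over both conditions, 63 in CV and 1 in the interaction. Male minus female was then -0.52 over both conditions and -0.68 in CV for Malat1, -0.12 and -0.46 for Neat1 and -0.59 in CV for Kcnq1ot1, and interactions were -0.32 for Malat1, -0.69 for Neat1 and -0.41 for Airn.

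With the replicate number as a block over all groups, 7228 genes were called between the conditions, 144, 281 and 8 between the sexes over both conditions, in GF and in CV, and 0 in the interaction, with 0 members. Correlations of same-numbered samples ran from -0.23 to 0.40, and 13 of 36 best matches had the same number. The block within CV gave 25 genes there and changed no call of a member.

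With each library left out, genes called ran from 6601 to 7445 between the conditions. Between the sexes they ran from 90 to 205 over both conditions, 49 to 716 in GF and 3 to 77 in CV, and in the interaction from 0 to 291. Partner and neighbour genes called ran from 80 to 91. Members called between the sexes ran from 0 to 1 over both conditions, 0 to 1 in GF and 0 to 2 in CV, and in the interaction from 0 to 2. The extremes came without GF female 2 (716 in GF), GF male 2 (49 in GF), CV male 1 (291 in the interaction, 48 in CV) and CV male 3 (77 in CV), and without GF male 3 or CV female 1 (90 over both conditions). Male minus female in GF ran from -0.16 to 0.55 for Neat1, -0.028 to 0.27 for Tug1 and -1.16 to 0.27 for Airn, in CV from -0.82 to 0.25 for Airn, and over both conditions from -0.73 to 0.044 for Airn and -0.29 to 0.17 for Kcnq1ot1. The interaction ran from -0.071 to 1.48 for Neat1 and -0.45 to 0.98 for Airn.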
